A study of Mus musculus with 29 samples.

Results

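The genes described here are 10 components of the canonical Wnt pathway in the embryonic mouse cortex, namely Axin2, Nkd1, Notum, Apcdd1, Sp5 and Lgr5, which are direct feedback targets of Wnt signalling, and the TCF/LEF genes Lef1, Tcf7, Tcf7l1 and Tcf7l2. They were taken as a fixed list by name, which was chosen with earlier results of these data known. All 10 were listed in every count table, and low counts removed none of them in either experiment, out of 15770 genes tested in the untreated libraries and 16372 in the treated libraries. Their H3K27me3 peaks were read from the 8 peak tables, in which 28 merged regions at these genes, out of 22220 regions in all, could be tested.

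In canonical Wnt signalling, β-catenin is degraded by a complex built on Axin and APC unless a Wnt ligand binds Frizzled and LRP receptors at the cell surface. Stabilised β-catenin enters the nucleus and binds TCF/LEF proteins at DNA, which turns their targets on. In the developing cortex the cortical hem, a strip at the medial edge, is a source of Wnt ligands, and the pathway is known for its role in the patterning of the pallium and hippocampus and in the growth of progenitor pools. Several direct targets act back on the pathway. Axin2 rebuilds the destruction complex, Nkd1 binds Dishevelled, Notum removes the lipid from Wnt proteins, and Apcdd1 binds Wnt ligands and LRP at the membrane.

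The libraries came from E17.5 cortex of C57BL/6J mice. In dcKO embryos, floxed alleles of Smarcc1 (BAF155) and Smarcc2 (BAF170), core subunits of the BAF chromatin remodelling complex, were deleted with hGFAP-Cre, whose promoter is active in the medial pallium first and later in dorsal and lateral pallium, so that cells outside this domain or older than it keep the genes. The first RNA experiment held 4 untreated libraries of a group lettered C and 3 of a group lettered M. The second held 4 wild-type libraries with vehicle (WT vehicle), 4 dcKO libraries with vehicle (dcKO vehicle) and 4 dcKO libraries with a Wnt inhibitor (dcKO inhibitor), given to the pregnant mother from E11.5. The third held H3K27me3 ChIP-seq from 4 libraries lettered C and 4 lettered K. GEO's genotype field gave the same dcKO genotype to every lettered library, C included, and no label spelled the letters out. C was taken as the control side and M and K as the deleted side of the study's control and dcKO comparison, and the groups are named by their letters throughout. Nothing in the labels says that replicates came from separate litters, so p-values measure the spread between these libraries.

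RNA depth was 11946658 to 28391046 counted reads per library. Levels are given as CPM, read counts scaled to library size with TMM factors, and differences as log2 fold changes ± SE from edgeR's quasi-likelihood test, called at a Benjamini-Hochberg adjusted p under 0.05. The deleted genes did not follow the labels in every library. Smarcc1 stood at 247 to 269 CPM in untreated C and 245 to 299 CPM in WT vehicle. It was 128 and 135 CPM in M3 and M4 but 245 CPM in M2. Among the libraries labelled dcKO vehicle it was 136, 242, 133 and 138 CPM in replicates 1 to 4, and among those labelled dcKO inhibitor 214, 252, 140 and 173 CPM. Smarcc2 was 654 to 714 CPM in C and 664 to 834 CPM in WT vehicle. It was also high, at 670 CPM, in M2, at 692 CPM in the library labelled dcKO vehicle 2, and at 644 and 695 CPM in those labelled dcKO inhibitor 1 and 2. It was 398 to 439 CPM in M3, M4, dcKO vehicle 1, 3 and 4 and dcKO inhibitor 3. The library labelled dcKO inhibitor 4 stood between, with 586 CPM of Smarcc2 and 173 CPM of Smarcc1. Each comparison is therefore also given without M2 or without these 3 treated libraries, which are those with Smarcc1 above 200 CPM. This setting was chosen after the data had been seen and selects libraries by the deleted gene, not by the Wnt genes. It keeps dcKO inhibitor 4, so that its inhibitor group is dcKO inhibitor 3 and 4.

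The experiments were not independent of each other. Over 15220 genes, deviations from the group mean correlated at r = 0.18 to 0.85 in the 7 pairs of same-numbered libraries (C with WT vehicle, M with dcKO vehicle) and at −0.73 to 0.52 in the 21 other pairs. The highest value, 0.85, joined M2 to dcKO vehicle 2. The labels do not say that embryos were shared. The untreated and the vehicle comparison are given side by side, and neither counts as a repeat of the other.

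Promoter sequences are shown for 4 genes on which the results below turn. Merged H3K27me3 regions overlap the Tcf7l1, Tcf7l2 and Sp5 windows, while the Axin2 window overlaps a peak in 0 of the 8 libraries and is shown for contrast. RefSeq (GRCm38.p6, the build called mm10) gave 12 promoter windows for 7 of the 10 genes. Each window runs from 250 bases before to 50 bases after a start site, on the gene's own strand, 5′ to 3′. Capitals mark CG pairs. In the Sp5 window they also mark CTTTGAT, the core letters that TCF/LEF proteins are known to bind, which were searched on both strands.
The Axin2 window, chr11:108920099-108920398 on the plus strand, holds 31 CG pairs.
Axin2: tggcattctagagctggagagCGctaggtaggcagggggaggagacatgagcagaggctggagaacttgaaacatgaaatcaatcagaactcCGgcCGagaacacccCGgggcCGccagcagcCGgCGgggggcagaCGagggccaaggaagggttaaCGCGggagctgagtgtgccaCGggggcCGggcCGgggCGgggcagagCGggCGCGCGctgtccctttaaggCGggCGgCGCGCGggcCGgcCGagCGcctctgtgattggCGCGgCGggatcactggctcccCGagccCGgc
The Tcf7l1 window, chr6:72788996-72789295 on the minus strand, holds 34 CG pairs.
Tcf7l1: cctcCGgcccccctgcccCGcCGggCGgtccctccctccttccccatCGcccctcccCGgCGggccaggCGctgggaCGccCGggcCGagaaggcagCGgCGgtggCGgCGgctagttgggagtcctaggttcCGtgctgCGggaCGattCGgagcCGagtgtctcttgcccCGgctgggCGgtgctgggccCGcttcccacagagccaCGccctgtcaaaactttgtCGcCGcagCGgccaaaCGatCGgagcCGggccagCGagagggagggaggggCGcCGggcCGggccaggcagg
The Tcf7l2 window at the 5′ end of the gene, chr19:55741560-55741859 on the plus strand, also holds 34 CG pairs.
Tcf7l2: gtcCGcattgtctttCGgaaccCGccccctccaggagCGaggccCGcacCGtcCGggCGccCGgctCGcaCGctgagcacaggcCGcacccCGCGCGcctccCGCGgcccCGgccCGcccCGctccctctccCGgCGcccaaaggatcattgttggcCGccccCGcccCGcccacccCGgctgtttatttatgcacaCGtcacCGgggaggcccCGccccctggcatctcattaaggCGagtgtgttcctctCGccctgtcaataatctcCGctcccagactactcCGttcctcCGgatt
The second Tcf7l2 window lies at a start site 153501 bases inside the gene, chr19:55895071-55895370 on the plus strand, and holds 7 CG pairs.
Tcf7l2 internal: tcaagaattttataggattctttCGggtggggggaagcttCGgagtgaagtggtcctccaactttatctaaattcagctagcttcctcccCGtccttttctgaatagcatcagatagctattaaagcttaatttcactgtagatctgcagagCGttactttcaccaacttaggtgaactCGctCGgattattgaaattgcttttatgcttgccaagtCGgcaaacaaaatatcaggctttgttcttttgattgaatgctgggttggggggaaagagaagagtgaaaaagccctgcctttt
The Sp5 window, chr2:70474673-70474972 on the plus strand, holds 6 CG pairs and the TCF/LEF letters at −104 from the start site.
Sp5: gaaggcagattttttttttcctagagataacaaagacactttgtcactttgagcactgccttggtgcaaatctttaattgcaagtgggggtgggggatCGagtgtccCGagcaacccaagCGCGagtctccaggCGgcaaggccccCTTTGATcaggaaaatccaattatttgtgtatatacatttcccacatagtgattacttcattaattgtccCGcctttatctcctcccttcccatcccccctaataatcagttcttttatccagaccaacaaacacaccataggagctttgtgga
The CTTTGAT letters occurred in 1 of the 12 windows of these genes and in 1225 of 32851 windows over all genes (3.73%). The median over all windows was 7 CG pairs, so that the Axin2, Tcf7l1 and first Tcf7l2 windows are rich in them while the internal Tcf7l2 and Sp5 windows are not.

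Levels between genes were compared per kb of exon in the 4 untreated C libraries. Apcdd1 (5.57 ± 0.38 CPM per kb, SD, n = 4) and Axin2 (5.49 ± 0.49) stood highest and their ranges overlapped. Nkd1 followed with 3.69 ± 0.76 CPM per kb and Tcf7 with 2.26 ± 0.12. Tcf7l1 (1.11 ± 0.13 CPM per kb) and Lef1 (0.94 ± 0.09) overlapped, and Tcf7l2 lay below both at 0.68 ± 0.05. Notum, Sp5 and Lgr5 were lowest, with 0.33 ± 0.05, 0.28 ± 0.10 and 0.17 ± 0.03 CPM per kb, where each overlapped its neighbour in that order. These 3 genes rested on few reads, 4 to 52 per library over the 19 libraries, against 305 to 1254 for Axin2.

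**Figure D1:**
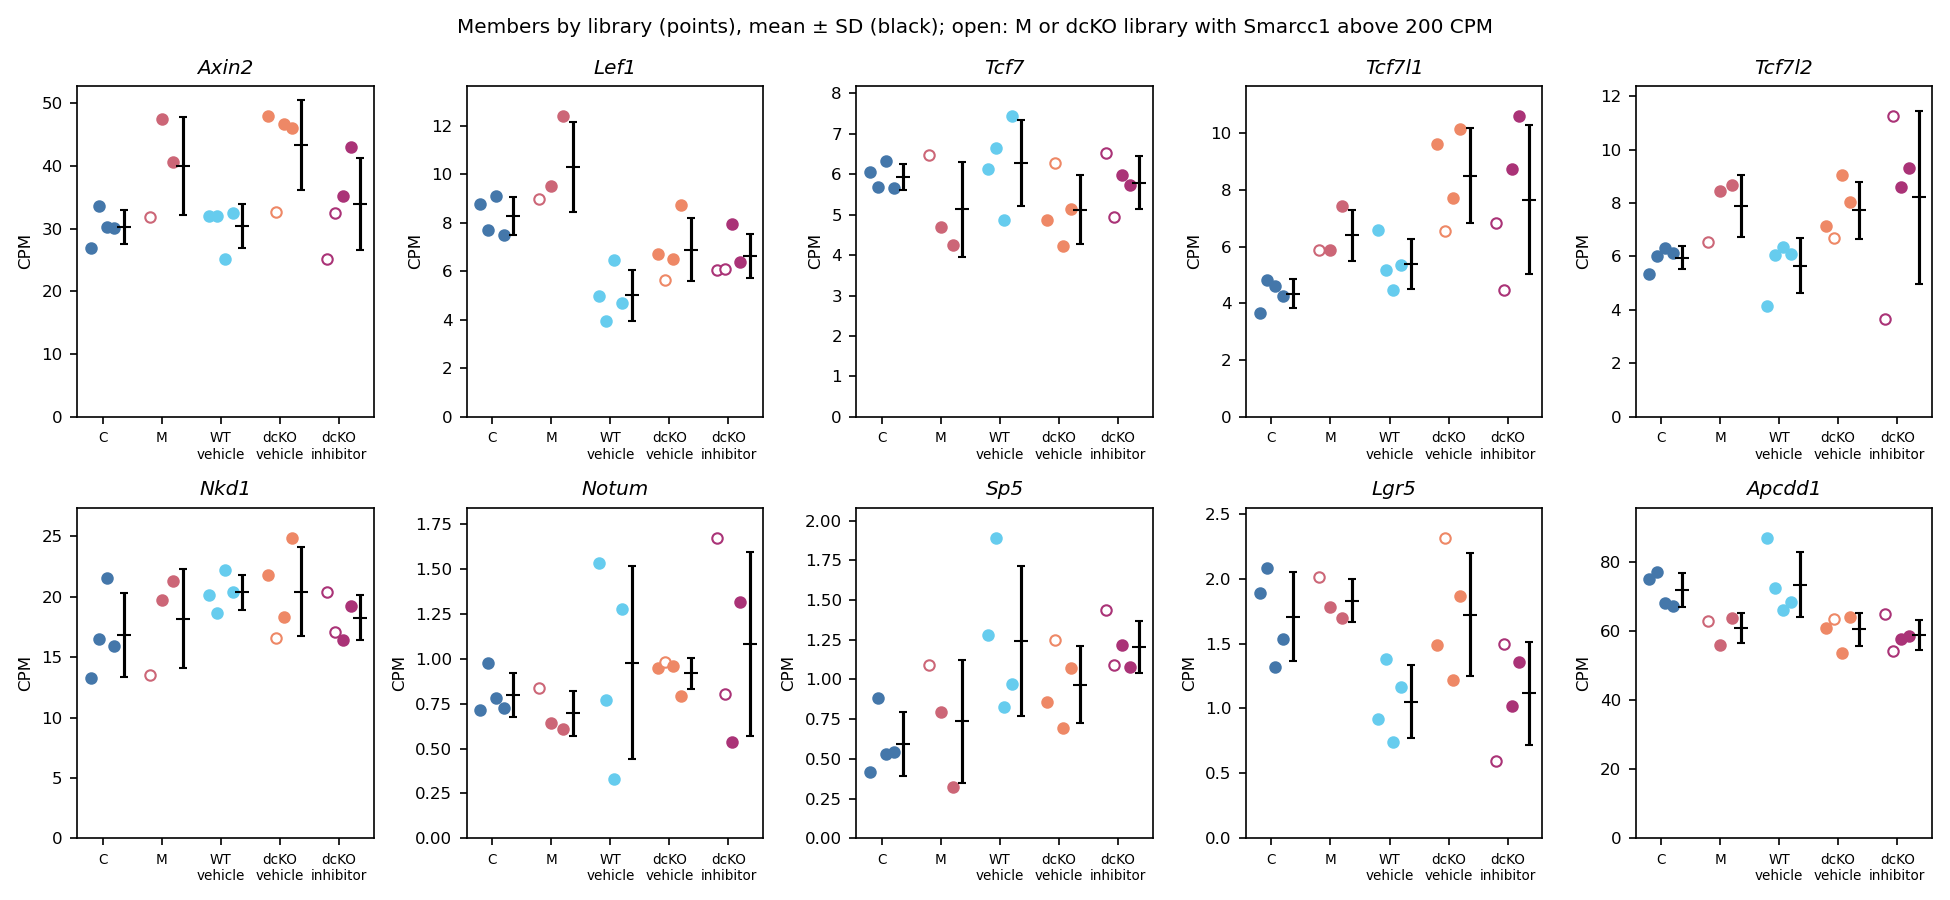
Level of each of the 10 Wnt genes in CPM (y axis) in the 19 RNA libraries (points) by group (x axis), with the group mean ± SD as a black bar. Open points mark the M or dcKO libraries with Smarcc1 above 200 CPM, and in the Axin2 panel M2 (31.8 CPM) and dcKO vehicle 2 (32.6 CPM) lie at the level of the C and WT libraries.

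Axin2, a scaffold of the destruction complex and a widely used reporter of canonical Wnt signalling, had a higher mean in the M and dcKO vehicle groups than in their controls. In untreated C it read 26.97, 33.6, 30.3 and 30.0 CPM, and in M2, M3 and M4 31.8, 47.5 and 40.7 CPM. With vehicle, the 4 WT libraries read 32.1, 32.1, 25.2 and 32.5 CPM and the 4 dcKO libraries 47.9, 32.6, 46.8 and 46.1 CPM. M3 and M4 lay above all C libraries while M2 fell inside their range, and dcKO vehicle 2 exceeded the highest WT library by less than the spread within WT. The log2 fold change was 0.41 ± 0.13 in the untreated comparison (edgeR adjusted p = 0.188) and 0.51 ± 0.16 with vehicle (adjusted p = 0.337), so neither passed.

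Without M2, Axin2 was called higher in M, by 0.54 ± 0.10 on the log2 scale (edgeR adjusted p = 0.0061). Without the library labelled dcKO vehicle 2 alone it was called higher in dcKO vehicle as well (log2 fold change 0.62, adjusted p = 0.0496), and without all 3 treated libraries the log2 fold change was 0.62 ± 0.12 (adjusted p = 0.0107). Axin2, Lef1, Tcf7l1 and Tcf7l2 stand on the study's own list of Wnt genes, which was drawn from the untreated libraries, so their direction there is not independent evidence.

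In the dcKO inhibitor libraries Axin2 read 25.2, 32.4, 35.1 and 43.05 CPM, a range that spans the WT and the dcKO vehicle values. The log2 fold change of dcKO inhibitor against dcKO vehicle was −0.35 ± 0.16 (edgeR adjusted p = 0.318) and against WT vehicle 0.16 ± 0.16 (adjusted p = 0.625). The lowest values, in dcKO inhibitor 1 and 2, came from libraries with Smarcc1 at 214 and 252 CPM. Without the 3 libraries the inhibitor difference was −0.26 ± 0.14 (adjusted p = 0.360) and the difference from WT vehicle 0.36 ± 0.13 (adjusted p = 0.126). A decrease of Axin2 with the inhibitor was thus not called in either set of libraries.

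**Figure D2:**
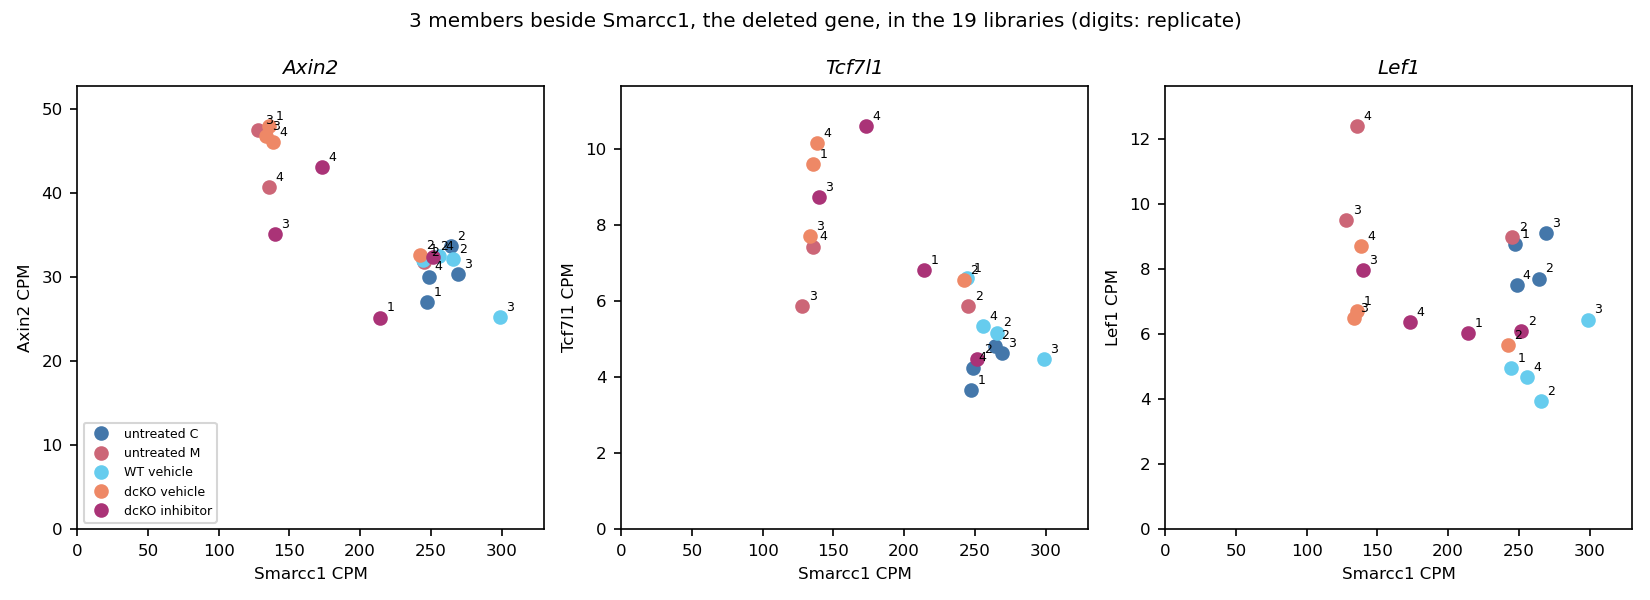
Axin2, Tcf7l1 and Lef1 (y axes, CPM) against Smarcc1 (x axis, CPM) in the 19 RNA libraries, coloured by group, with the replicate number beside each point. M2 and dcKO vehicle 2, at 245 and 242 CPM of Smarcc1, sit among the C and WT points in the Axin2 panel, and dcKO inhibitor 3 and 4, at 140 and 173 CPM of Smarcc1, lie at 35.1 and 43.05 CPM of Axin2.

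Apcdd1, a membrane inhibitor of Wnt signalling, had a lower mean in both genotype comparisons. It read 75.0, 77.0, 68.1 and 67.2 CPM in untreated C and 63.0, 55.9 and 63.7 CPM in M, with no overlap. With vehicle the WT libraries read 87.0, 72.3, 65.99 and 68.3 CPM and the dcKO libraries 60.8, 63.4, 53.6 and 64.2 CPM, again with no overlap. All 4 dcKO inhibitor libraries, at 64.8, 54.3, 57.8 and 58.6 CPM, also lay below the WT libraries. The log2 fold changes were −0.24 ± 0.07 untreated (edgeR adjusted p = 0.182), −0.28 ± 0.10 with vehicle (adjusted p = 0.399) and −0.32 ± 0.10 for dcKO inhibitor against WT vehicle (adjusted p = 0.144). None passed. Inhibitor and vehicle dcKO libraries differed by −0.04 ± 0.10. Unlike Axin2, Apcdd1 in M2 and in dcKO vehicle 2 was below every control library of its experiment. DESeq2 without M2 called Apcdd1 lower in M (log2 fold change −0.26, adjusted p = 0.0437) where edgeR did not (adjusted p = 0.0602).

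Nkd1, the Dishevelled-binding inhibitor, showed no called difference in any comparison. It read 13.2, 16.5, 21.6 and 15.95 CPM in untreated C and 13.52, 19.7 and 21.3 CPM in M. WT vehicle libraries lay between 18.6 and 22.3 CPM, dcKO vehicle between 16.6 and 24.9 CPM and dcKO inhibitor between 16.4 and 20.4 CPM, so all groups overlapped. The log2 fold changes were 0.12 ± 0.19 untreated, 0.01 ± 0.13 with vehicle and −0.16 ± 0.13 for the inhibitor. Notum, the Wnt deacylase, lay at or below 1.67 CPM in every library. Its WT vehicle values, 1.53, 0.77, 0.33 and 1.28 CPM, spanned those of dcKO vehicle (0.79 to 0.98 CPM), and its log2 fold changes were −0.24 ± 0.26 untreated, −0.15 ± 0.40 with vehicle and 0.23 ± 0.39 for the inhibitor. At this depth a change of Notum smaller than its spread could not be detected.

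Among the TCF/LEF factors, Tcf7l1, which represses Wnt targets until β-catenin binds it, had the largest log2 fold change of the 4 in both genotype comparisons. It read 3.66, 4.83, 4.63 and 4.25 CPM in untreated C and 5.88, 5.87 and 7.43 CPM in M, with no overlap. With vehicle it read 6.60, 5.17, 4.47 and 5.35 CPM in WT and 9.61, 6.55, 7.71 and 10.2 CPM in dcKO, where only dcKO vehicle 2 fell within the WT range. The log2 fold changes were 0.56 ± 0.16 (edgeR adjusted p = 0.153) and 0.65 ± 0.24 (adjusted p = 0.394). Without M2 Tcf7l1 was called higher in M (0.61 ± 0.16, adjusted p = 0.0354), and without the 3 treated libraries it was called higher in dcKO vehicle (0.75 ± 0.16, adjusted p = 0.0232).

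The dcKO inhibitor libraries read 6.82, 4.48, 8.75 and 10.6 CPM of Tcf7l1. Against dcKO vehicle the log2 fold change was −0.14 ± 0.23, and it turned to 0.08 ± 0.19 without the 3 libraries. Against WT vehicle it was 0.51 ± 0.24 (edgeR adjusted p = 0.260) and, without those libraries, 0.84 ± 0.18 (adjusted p = 0.0236). In that set Tcf7l1 was called higher in dcKO than in WT both with vehicle and with the inhibitor. Both comparisons use the same WT libraries.

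Tcf7l2, which encodes the TCF4 protein and is known as a marker of the developing thalamus, read 5.34, 6.03, 6.30 and 6.14 CPM in untreated C and 6.55, 8.45 and 8.68 CPM in M, with no overlap. With vehicle it read 4.14, 6.04, 6.37 and 6.08 CPM in WT and 7.13, 6.68, 9.06 and 8.02 CPM in dcKO, again with no overlap. The log2 fold changes were 0.42 ± 0.14 (edgeR adjusted p = 0.2008) and 0.45 ± 0.27 (adjusted p = 0.644). Without M2 the untreated difference was called (0.52 ± 0.13, adjusted p = 0.0226). The vehicle difference was not called without the 3 libraries (0.51 ± 0.17, adjusted p = 0.118). With the inhibitor the libraries spread from 3.65 to 11.3 CPM, wider than any other group, and both ends came from libraries with Smarcc1 above 200 CPM. The summed thalamus markers, 6 genes that include no TCF, were 121.5 to 141 CPM in C, 162 and 176 CPM in M3 and M4, and 115 CPM in M2. With vehicle they were 83.8 to 138 CPM in WT and 132, 96.2, 156 and 164 CPM in dcKO vehicle 1 to 4, and in the dcKO inhibitor libraries 74.4 to 114 CPM. The mean was higher for 6 of the 6 genes in M and for 5 of 6 in dcKO vehicle. Shox2, of that list, was at 0 in the 4 C libraries and read 1.76, 11.1 and 8.32 CPM in M2, M3 and M4. The part of these markers in the Tcf7l2 values was not tested.

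Lef1, an activating partner of β-catenin and itself a Wnt target, read 8.78, 7.71, 9.11 and 7.50 CPM in untreated C and 8.98, 9.51 and 12.4 CPM in M, so that the groups overlapped through M2 and C3. WT vehicle read 4.96, 3.94, 6.45 and 4.69 CPM and dcKO vehicle 6.72, 5.66, 6.49 and 8.72 CPM. The log2 fold changes were 0.32 ± 0.14 (edgeR adjusted p = 0.308) and 0.47 ± 0.18 (adjusted p = 0.415), and inhibitor and vehicle dcKO libraries differed by −0.06 ± 0.18. Leaving out the libraries with high Smarcc1 raised the genotype differences to 0.40 ± 0.14 and 0.56 ± 0.19, and neither passed. Tcf7, which encodes TCF1, went the other way on average. It read 6.05, 5.67, 6.33 and 5.65 CPM in C, 4.70 and 4.24 CPM in M3 and M4 and 6.46 CPM in M2. Its log2 fold changes were −0.23 ± 0.16 untreated, −0.30 ± 0.17 with vehicle and 0.18 ± 0.17 for the inhibitor, and none passed.

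Sp5, a zinc finger repressor induced by Wnt in many tissues, and Lgr5, an R-spondin receptor that marks Wnt-responsive stem cells, were both at or below 2.32 CPM. Sp5 read 0.42 to 0.89 CPM in C and 1.09, 0.80 and 0.32 CPM in M, and 0.83 to 1.89 CPM in WT vehicle against 0.70 to 1.25 CPM in dcKO vehicle. Its log2 fold changes were 0.22 ± 0.43, −0.37 ± 0.28 and, for the inhibitor, 0.31 ± 0.28. Lgr5 read 1.89, 2.08, 1.32 and 1.54 CPM in C and 2.01, 1.78 and 1.70 CPM in M, a log2 fold change of 0.09 ± 0.22. With vehicle it read 0.92, 1.38, 0.74 and 1.16 CPM in WT and 1.49, 2.32, 1.22 and 1.86 CPM in dcKO (0.68 ± 0.30, edgeR adjusted p = 0.487), and 0.60, 1.49, 1.02 and 1.36 CPM with the inhibitor (−0.61 ± 0.30 against dcKO vehicle, adjusted p = 0.333). The highest of the dcKO vehicle values, 2.32 CPM, came from replicate 2.

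**Figure D3:**
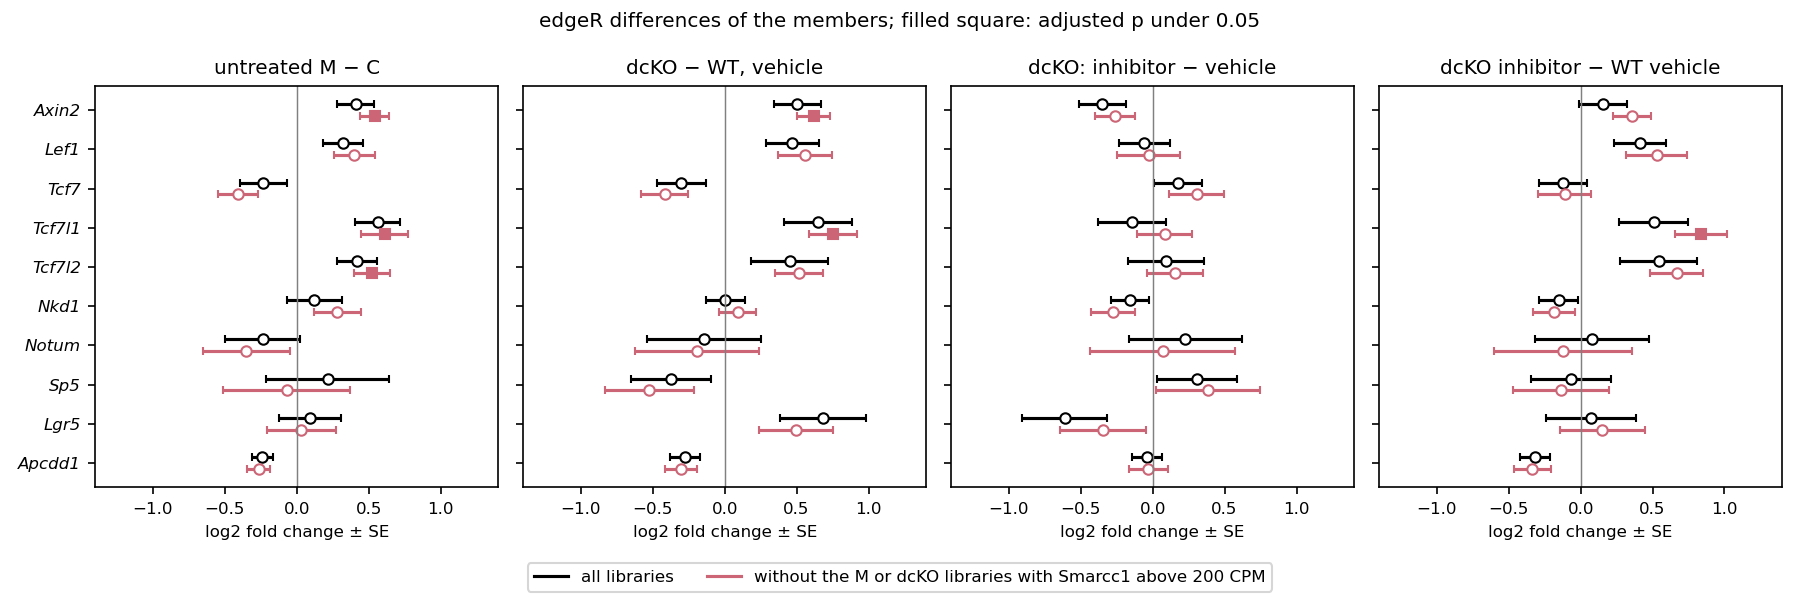
Log2 fold change ± SE (x axes) of the 10 genes (y axis) in the 4 comparisons, with all libraries in black and without the M or dcKO libraries with Smarcc1 above 200 CPM in red. Filled squares, at an adjusted p under 0.05, appear for Axin2, Tcf7l1 and Tcf7l2 in the untreated panel, for Axin2 and Tcf7l1 with vehicle and for Tcf7l1 in dcKO inhibitor against WT vehicle.

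With all libraries kept, none of the 10 genes passed an adjusted p under 0.05 in any comparison. By edgeR few genes did at all. The share of all tested genes called by it was 0.00634% in the untreated comparison, 0.00611% with vehicle, 0.055% for the inhibitor in dcKO and 0.0977% for dcKO inhibitor against WT vehicle. DESeq2 called more genes, with 0 members in each comparison. In the same order it called 264, 85, 174 and 319 genes higher and 314, 35, 165 and 464 lower. At an unadjusted p under 0.01, Tcf7l1 was higher and Apcdd1 lower in M (2 of 10, against 5.46% of all genes), and Axin2 was higher in dcKO vehicle (1 of 10, against 2.85%). No member reached that level for the inhibitor (4.65% of all genes did), and Apcdd1 did, as lower, in dcKO inhibitor against WT vehicle (6.72%). Without M2, 3 of 10 members were called higher in M, where 5.57% of 16024 genes were. Without the 3 treated libraries, 2 of 10 were called higher in dcKO vehicle (2.47% of 16815 genes) and 1 of 10 in dcKO inhibitor against WT vehicle (2.66%). No member was called lower there by edgeR. The median log2 fold change over the 10 genes was 0.17 untreated, 0.23 with vehicle, −0.05 for the inhibitor and 0.08 for dcKO inhibitor against WT vehicle, and that over all genes lay between −0.003 and 0.011.

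The untreated genotype difference minus the vehicle difference was tested in a fit over all 19 libraries. No gene was called (0% by edgeR, and 0 by DESeq2). Unadjusted, 7 of 16156 genes were higher and 9 were lower at edgeR's p under 0.01. This fit took the 19 libraries as independent, though same-numbered libraries correlated across the experiments. Its SEs leave out that pairing, so the absence of calls does not show that the differences were equal. Among the members it ranged from −0.59 ± 0.38 for Lgr5 to 0.59 ± 0.50 for Sp5, and was −0.10 ± 0.23 for Axin2.

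Markers of other cells moved with these groups. In bulk tissue, fewer cells of a type and less RNA per cell cannot be told apart. The 8 brain endothelium markers, a cell type in which Axin2, Lef1 and Apcdd1 are known to be active, summed to 234 to 273 CPM in C and 179 to 217 CPM in M, and to 227 to 264 CPM in WT vehicle and 181 to 215 CPM in dcKO vehicle. None of the 8 had a higher mean in either genotype comparison, and none was at 0 in any library. The 6 cortical hem markers summed to 45.1 to 57.7 CPM in C and 66.4 to 75.3 CPM in M, and to 42.0 to 58.0 CPM in WT vehicle and 57.9 to 77.2 CPM in dcKO vehicle, with 4 of 6 and 5 of 6 higher on average. The 6 choroid plexus markers summed to 6.37 to 10.5 CPM in dcKO vehicle but to 833, 158, 470 and 11.4 CPM in dcKO inhibitor 1 to 4. They summed to 6.51 to 128 CPM in C, 5.54 to 10.1 CPM in M and 6.12 to 125 CPM in WT vehicle. The highest C and WT vehicle sums came from untreated C4 and WT vehicle 4. Kcnj13, of that list, was at 0 in 5 of the 19 libraries. Of the 6 meninges markers, 0 had a higher mean in either genotype comparison (median log2 fold change −0.94 untreated and −0.92 with vehicle). With the inhibitor 6 of 6 were higher on average than in dcKO vehicle (median 0.64). Their sums were 11.2 to 17.8 CPM in M, 14.6 to 19.7 CPM in dcKO vehicle and 15.6 to 48.2 CPM in dcKO inhibitor. Controls spread more widely, with 11.6 CPM in C3 and 44.1 CPM in C2, and 11.9 to 51.0 CPM in WT vehicle. The pallium identity genes, 7 markers of cortical neurons and progenitors, summed to 2104 to 2774 CPM in C and to 2888, 1408 and 1578 CPM in M2, M3 and M4. With vehicle they summed to 2045 to 2925 CPM in WT and to 1330, 2700, 1445 and 1654 CPM in dcKO vehicle 1 to 4. In the dcKO inhibitor libraries the sums were 1860 to 2146 CPM. On average 1 of 7 was higher in M and 0 of 7 in dcKO vehicle. The 8 radial glia markers summed to 1274 to 1373 CPM in C and 1362 to 1485 CPM in M, and to 1311 to 1452 CPM in WT vehicle and 1344 to 1475 CPM in dcKO vehicle. In the sets of libraries in which members were called, markers were called too. Without M2, these were 4 of 8 radial glia genes higher (Pax6, Sox2, Hes5 and Fabp7) and 1 lower (Nes), 3 of 6 thalamus genes higher (Gbx2, Lhx9 and Shox2), 2 of 6 hem genes higher (Wnt2b and Rspo2), 1 oligodendrocyte lineage gene higher (Pdgfra), 4 of 7 pallium identity genes lower and 2 of 8 endothelial genes lower (Flt1 and Slco1c1). With vehicle, without the 3 libraries, 4 of 7 pallium identity, 2 of 8 endothelial and 1 of 8 radial glia genes were called lower, and 2 of 6 hem, 1 of 6 thalamus and 1 of 6 oligodendrocyte lineage genes higher. The part of these cell types in the Wnt gene values was not tested.

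Across the 19 libraries, after the mean of each experiment was subtracted, Axin2 and Tcf7l1 had r = 0.75 and Axin2 and Tcf7l2 r = 0.63 on log2 CPM. The points share libraries, depth and group differences, so these values are descriptions. By the same measure over 14007 genes, the genes most like Axin2 were Fam53c (r = 0.95), Prag1 (r = 0.95) and Wnt2b (r = 0.95), the last a Wnt ligand of the cortical hem and a gene of the hem list. Those most like Lef1 were Skap2 (r = 0.89), Shisa2 (r = 0.88) and Rrp8 (r = 0.87).

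Other genes of the pathway were read from 2 lists, 34 genes of the β-catenin machinery and 18 further Wnt-responsive genes, of which 34 and 17 were tested. With all libraries none of them passed by edgeR in any comparison. The machinery medians were 0.04, 0.04, −0.11 and −0.07 on the log2 scale in the order untreated, vehicle, inhibitor and dcKO inhibitor against WT vehicle, and those of the responsive genes −0.08, −0.07, −0.03 and −0.002. The genes named next lie outside the naming rule and were picked after their values had been seen. Dkk1, a secreted LRP inhibitor, read 0.04 to 0.18 CPM in C and 1.18, 0.61 and 1.62 CPM in M, with no overlap. It read 0.05 to 0.25 CPM in WT vehicle and 0.86, 0.58, 0.48 and 1.119 CPM in dcKO vehicle, again with no overlap. Its log2 fold change was 3.67 ± 0.55 untreated (edgeR adjusted p = 0.0801) and 2.35 ± 0.59 with vehicle (adjusted p = 0.234). The C and WT vehicle values of Dkk1 lay below the lowest Notum value, 0.33 CPM, which came from 4 reads. The size of these fold changes therefore rests on few control reads. Unlike Axin2, Dkk1 was above all C libraries also in M2. In the inhibitor libraries it read 0.24, 0.75, 1.55 and 0.96 CPM.

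Without M2, 5 of the 34 machinery genes were called higher and 2 lower in M, where 5.57% of all tested genes were called higher and 6.88% lower. The higher ones included Ctnnb1, which encodes β-catenin (log2 fold change 0.29 ± 0.08), Tle1, a TCF corepressor (0.55 ± 0.05), and Wls, which carries Wnt proteins to the surface (0.67 ± 0.08). The lower ones were the corepressors Tle3 (−0.54 ± 0.09) and Tle4 (−0.34 ± 0.07). Of the responsive genes, 5 were called higher, among them Ccnd1, which encodes cyclin D1 (0.60 ± 0.08), and Wif1, a secreted Wnt inhibitor (1.47 ± 0.41), and 3 lower, namely Rnf43, a ligase that removes Frizzled (−1.596 ± 0.30), Nkd2 (−0.62 ± 0.12) and Id2 (−0.91 ± 0.09). With vehicle, without the 3 libraries, where 2.47% of all genes were called higher and 3.34% lower, Tle1 was called higher (0.49 ± 0.09) and Tle3 lower (−0.59 ± 0.10), and Dkk1, Wif1 and Ccnd1 were called higher and Id2 lower. For the inhibitor in that set, where 0.303% were called higher and 0.72% lower, Ep300, a coactivator of β-catenin, was called lower (−0.57 ± 0.11) and Id2 higher (0.72 ± 0.12). In dcKO inhibitor against WT vehicle, where 2.66% were called higher and 4.72% lower, Tle1, Dkk1 and Ccnd1 were called higher and Apc, Ep300, Amer1 and Nkd2 lower. Negative regulators of Wnt signalling stood in both directions.

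H3K27me3, the mark that Polycomb repressive complex 2 sets on silent developmental genes, was read as MACS broad peaks called by the authors in each library. Fold enrichment is the ratio of ChIP to input signal in a peak. After duplicate removal the libraries kept 2420911 to 28335352 tags, 12.3% to 66.5% of those read, and held 6674 to 46000 peaks, and C3 (2420911 tags) and K2 (3386488 tags) were among the shallow ones. A library without a peak in a region was set to 1.

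Of the 10 genes, 9 had a merged region within 2000 bases of their start, as had 24.6% of 16328 tested genes. Such a region was built from peaks of all 8 libraries at 2 of the 10, Sp5 and Lgr5, against 3.30% of all genes. The Sp5 region covered the whole gene (chr2:70468134-70479602, 11469 bases) and with it the promoter printed above. Its fold enrichment was 12.8, 5.29, 6.76 and 5.13 in C and 13.49, 5.95, 5.67 and 11.2 in K, so that each of the groups held high and low libraries. The log2 difference of K from C was 0.28 ± 0.56 (limma). The C3 peak of that region lay 1236 to 1814 bases past the Sp5 start. K2 had peaks at −5856 to −4087 and at 309 to 658 bases, so neither library had a peak in the printed window.

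Notum carried a region over the gene and its start (chr11:120654020-120665931) with a fold enrichment of 18.8, 5.66, 4.63 and 5.40 in C and 18.9, 5.28 and 10.3 in K1, K3 and K4. K2 had no peak there, and the difference was −0.34 ± 0.62. At Lgr5, which held 14 tested regions, the region at the gene start (chr10:115576576-115598027) had a fold enrichment of 8.65, 4.64, 4.64 and 4.36 in C and 6.68, 3.33, 5.17 and 9.47 in K (0.11 ± 0.67). The K2 peak counted there lay upstream, at −8657 to −7067 bases from the start, and did not reach it. A second region of 26104 bases over the distal gene body was likewise present in all 8 libraries (−0.03 ± 0.68). A small Lgr5 region was found in 3 C and in 0 K libraries (1724 bases, −1.33 ± 0.80, limma adjusted p = 0.999995).

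**Figure D4:**
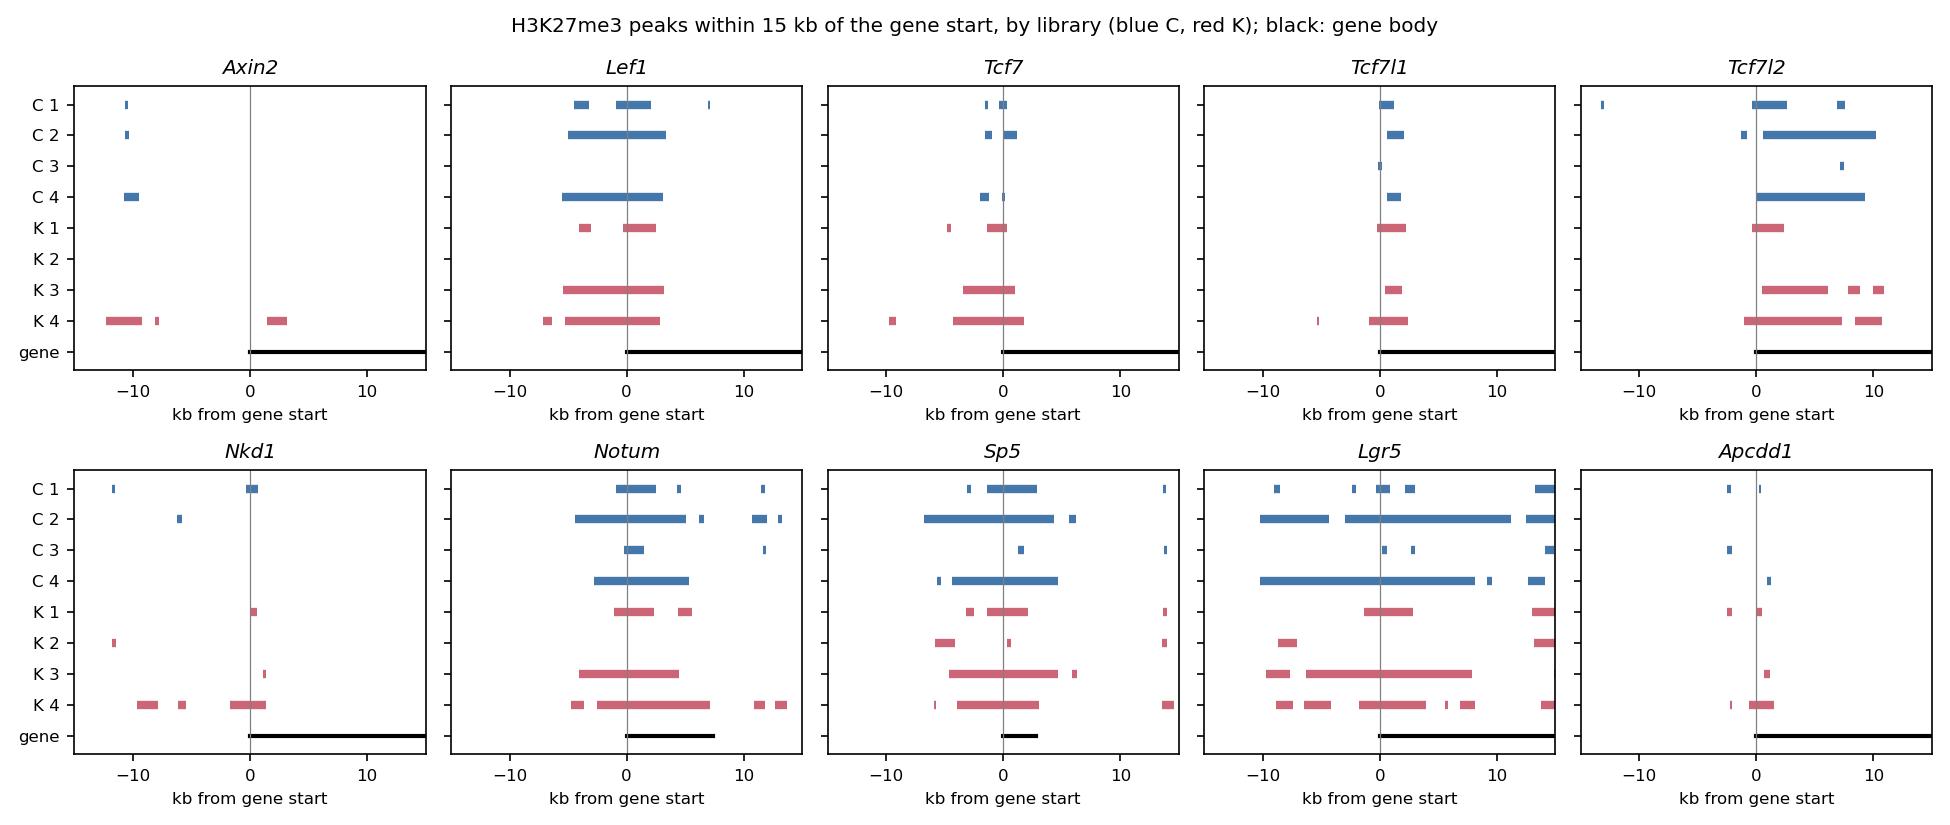
H3K27me3 peaks (bars) within 15 kb of the start of each of the 10 genes (x axes, kb along the gene) in the 4 C (blue) and 4 K (red) libraries (y axis), with the gene body in black. Bars cover the start of Lef1, Notum, Sp5 and Lgr5 in most libraries of both groups, and within the first 15 kb of the Axin2 gene there is a single bar, in K4. Upstream of the Axin2 start, bars lie in C1, C2, C4 and K4.

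The TCF/LEF genes all carried the mark at their starts in both groups. At Tcf7l2 the 5′ region (chr19:55740549-55752711) was found in 4 C and 3 K libraries (−0.54 ± 0.75). The C3 peak counted in it lay 7160 to 7524 bases past the start, and C3 had no peak within 2000 bases of the start. A second region around the internal start site (chr19:55887926-55903795, 15870 bases) was found in all 8. There the fold enrichment was 9.31, 4.37, 5.10 and 4.62 in C and 7.74, 7.17, 4.68 and 5.89 in K (0.17 ± 0.65). The internal Tcf7l2 and Sp5 windows were the 2 of the 12 promoter windows that overlapped a merged region built from peaks of all 8 libraries. Over all windows the share was 3.03%. Any region was overlapped by 9 of 12, against 15.1%. These counts are of merged regions, not of peaks in the window itself. In the internal Tcf7l2 window C1, C3 and K2 had no peak, and in the Sp5 window C3 and K2 had none. Tcf7l1 had a region of 3381 bases in 4 C and 3 K libraries (−0.43 ± 0.79), Lef1 1 of 8902 bases in 3 and 3 (0.29 ± 0.84) and Tcf7 1 of 6071 bases in 3 and 3 (0.02 ± 0.85).

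Axin2, Nkd1 and Apcdd1 carried little of the mark within 2000 bases of their starts in most libraries. Over the Axin2 gene and the 2000 bases on either side of it there was a single peak, in K4, from 1459 to 3161 bases past its start with a fold enrichment of 5.54, which with 1 library could not be tested. K4 was the library with most peaks. Nkd1 had a region in 1 C and 3 K libraries (1.07 ± 0.90, limma adjusted p = 0.999995) and Apcdd1 in 2 C and 3 K libraries (0.61 ± 0.90). No member region and no region in the whole table was called (0%). Of the 28 member regions 0 had a p under 0.05, as had 49 of all 22220. Over all regions that is far below the share of 0.05 that chance alone would give. The 0 of 28 therefore says little about these genes. Libraries without a peak were set to 1, and the part of this in the spread was not tested. The mean was higher in K at 12 of the 28, against 59.8% of all regions. The SE over the 28 was 0.56 to 0.91 on the log2 scale, which leaves room for differences well over 1. With a replicate block it was 0.22 to 0.88, and 2 of the 28, both at Lgr5 and both lower in K (−1.33 ± 0.42 and −1.39 ± 0.44, limma adjusted p = 0.799), had an unadjusted p under 0.05, as had 233 of all 22220. The same 2 regions did so with a block of the share of tags kept (limma adjusted p = 0.742, 289 of all regions). No region was called in either fit.

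**Figure D5:**
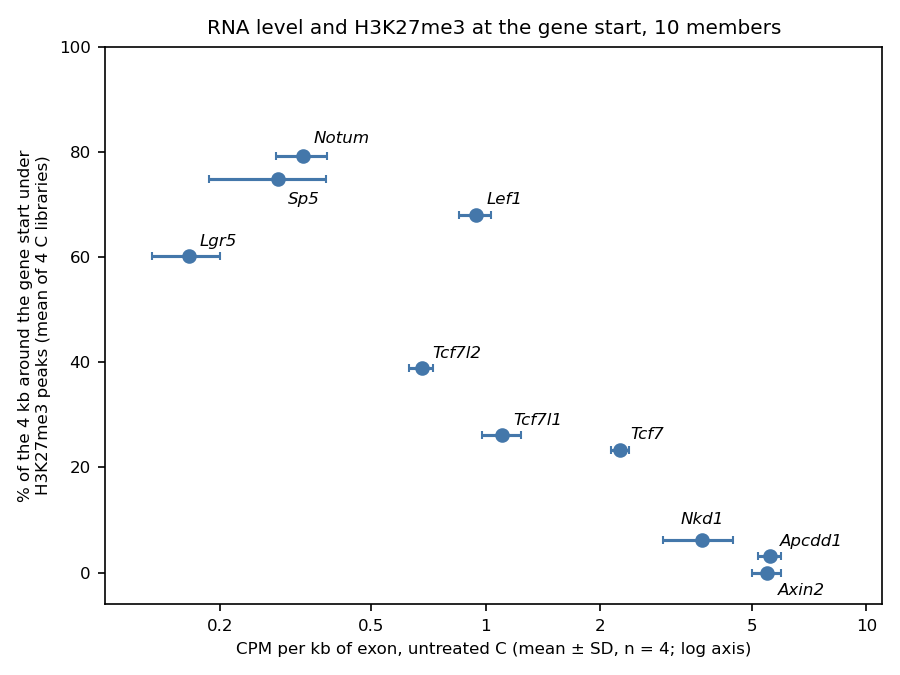
Percent of the 4 kb around each gene start that lay under H3K27me3 peaks, as the mean of the 4 C libraries (y axis), against the RNA level in CPM per kb of exon in untreated C (x axis, log scale, mean ± SD, n = 4) for the 10 genes. Axin2 and Apcdd1 lie at the lower right with 0% and 3.07%, and Notum, Sp5 and Lgr5 at the upper left with 60.2% to 79.3%.

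The level of the genes and their H3K27me3 cover ran in largely, but not fully, opposite order. In the C ChIP libraries the share of the 4 kb around the gene start that lay under peaks was 0% for Axin2, 3.07% for Apcdd1 and 6.14% for Nkd1, the 3 genes with the highest level per kb. It was 23.4% for Tcf7, 26.1% for Tcf7l1 and 38.9% for Tcf7l2. It reached 68.1% for Lef1, 60.2% for Lgr5, 74.9% for Sp5 and 79.3% for Notum. Lgr5, the lowest in level, thus had less cover than Lef1. Over the 10 genes, which share all libraries, Pearson's r with the log2 level was −0.90 and Spearman's rho −0.88, given as a description. The same measure over all genes is not given, so this order is not shown to be particular to these 10. In the K libraries the mean cover was 3.39% at Axin2, 19.04% at Apcdd1 and 23.9% at Nkd1, and K4, the library with most peaks, carried most of it with 13.55%, 52.8% and 76.3%. Without K4 the K means at these genes were 0%, 7.78% and 6.48%. For the TCF/LEF genes the K means were 53.3% at Tcf7, 41.3% at Tcf7l1, 43.4% at Tcf7l2 and 64.6% at Lef1, and without K4 they were 39.4%, 30.4%, 32.4% and 52.8%. Notum, Sp5 and Lgr5 had 69.4%, 73.4% and 69.3% in K, and 59.3%, 64.6% and 61.2% without K4. Nkd1's cover in C likewise came from 1 library, C1, with 24.5%.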

How the data were processed

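RNA-seq was made from 19 cortex libraries (TruSeq) and H3K27me3 ChIP-seq from 8. According to the study's methods the authors mapped the RNA reads with STAR (mm10), used featureCounts, and deposited raw counts per gene. The annotation and strand setting were not given in the sources used here. Rows that name no gene were left out and held 0 reads. For ChIP-seq the authors removed duplicate tags and called broad peaks with MACS 2.1.0.20140616 (q under 0.1) in each library against input. They deposited each peak's fold enrichment (a ratio), −log10 of p and q, and pileup signal.

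Counts were tested with edgeR 4.0.16 (TMM, filterByExpr, robust quasi-likelihood, Benjamini-Hochberg over all genes), with DESeq2 1.42.0 as an alternative. The 12 treated libraries shared a fit and the 7 untreated ones had their own. Peaks of the 8 libraries that overlapped were merged, and regions present in at least 2 libraries were tested with limma 3.58.1 on the log2 of the highest fold enrichment, set to 0 where a library had no peak. The deposited pileup signal and a q under 0.01 served as alternatives. Gene positions came from the GRCm38 annotation and promoters from RefSeq. The scripts were tested on simulated data. Counting precision follows the reads per gene given in the text.

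The genes and lists were chosen with earlier results of these data known. By rule, all 10 genes are named, Smarcc1 and Smarcc2 as a label check, the 3 genes of smallest p in each direction from each of the 2 pathway lists among those that passed with vehicle (there were none), and the 3 genes most like Axin2 and Lef1. No 2 replicates were duplicates (chi-square per degree of freedom at least 6.36). The remaining marker lists were radial glia, thalamus, meninges, oligodendrocyte lineage and microglia. Their sums in untreated C were 1274 to 1373, 121.5 to 141, 11.5 to 44.1, 116 to 156 and 39.8 to 45.5 CPM. With all libraries none of their genes passed by edgeR in any comparison. In the whole marker set only Otx2 then passed, higher in dcKO inhibitor than in WT vehicle (log2 fold change 1.64, edgeR adjusted p = 0.0464).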

Additional observations from a re-analysis of the deposited data

Results flagged for a closer look

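In 8 of the 61 groups of 4 libraries examined, the highest or lowest library stood apart from the other 3 by Dixon's gap criterion at the 95% level, where chance flags about 1 in 20 groups. Axin2 was 25.2 CPM in WT vehicle 3, against 32.1 to 32.5 CPM in the other WT libraries. Tcf7l2 was 4.14 CPM in WT vehicle 1, against 6.04 to 6.37 CPM. In the library labelled dcKO vehicle 2, Axin2 was 32.6 CPM against 46.1 to 47.9 CPM in the other dcKO vehicle libraries, Smarcc1 242 CPM against 133 to 138 CPM, and Smarcc2 692 CPM against 425 to 439 CPM. In the ChIP library C1, the fold enrichment was 9.31 at the internal Tcf7l2 region (4.37 to 5.10 in C2 to C4), 18.8 at Notum (4.63 to 5.66) and 8.65 at the Lgr5 gene start (4.36 to 4.64). C1 kept 13.7% of its tags and held 28659 peaks. The part of these features in the values was not tested.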

How the results depend on the processing

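Notum, Sp5 and Lgr5 rested on 4 to 52 reads per library. C3 and K2 held the fewest H3K27me3 peaks at these genes, 16 and 10 against 20 to 51 in the others, but C1, which kept fewer tags than K2, held 33. The letters C, M and K were read as control and deleted groups without a label that says so. Of the alternative values for single genes and regions, 700 kept their direction and side of the threshold, 11 passed it where the full set had not, and 47 changed sign.

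The count of all genes called at an adjusted p under 0.05 depended strongly on the setting. The untreated comparison called 1 gene, with size factors of DESeq2 1, with no filter on low counts 154 and by the DESeq2 test 578, of which 0 were members. The vehicle comparison called 1, and 0 with size factors, 0 with no filter, 0 in a fit of its 2 groups only and 120 by DESeq2. The inhibitor comparison called 9, and 20 with no filter and 339 by DESeq2. For dcKO inhibitor against WT vehicle the counts were 16, 58, 783 and, in a fit of the 2 groups only, 8. Without single libraries the counts ran from 0 to 1994 untreated (0 to 3 members), 0 to 562 with vehicle (0 to 1 members), 0 to 420 for the inhibitor and 0 to 1453 for dcKO inhibitor against WT vehicle. The highest untreated count came without M2 and the highest vehicle count without dcKO vehicle 2. Of the settings chosen after seeing the data, the DESeq2 test without M2 called 2155 of 16024 genes, 943 higher and 1212 lower. It called 4 members, Apcdd1 (lower) among them. Sp5 changed sign in that test, to −0.079. In another such setting, without the 3 treated libraries with Smarcc1 above 200 CPM, the counts were 978 with vehicle (2 members), 172 for the inhibitor and 1241 against WT vehicle (1 member). There Tcf7l1 turned to 0.083 for the inhibitor and Notum to −0.12 against WT vehicle. The cause of these shifts beyond the smaller number of libraries was not tested.

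With a replicate block, 0 genes were called untreated, 5 with vehicle and 189 for dcKO inhibitor against WT vehicle, and Nkd1 with vehicle turned to −0.0075. No member's call changed with the block. Within an experiment r exceeded 0.1 in 0 of 3 same-numbered pairs untreated (mean −0.15), 6 of 12 treated (mean 0.12) and 2 of 4 for H3K27me3, so numbers were not taken as pairs there. Across the RNA experiments all 7 same-numbered pairs exceeded it. A pair block across the experiments called 0 genes in the difference between them.

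Without single libraries, these log2 fold changes crossed 0. Untreated they ran, for Nkd1 −0.0031 to 0.28, Sp5 −0.071 to 0.62, Lgr5 −0.017 to 0.20. With vehicle they ran, for Nkd1 −0.10 to 0.091, Notum −0.37 to 0.12. For the inhibitor they ran, for Lef1 −0.16 to 0.068, Tcf7l1 −0.34 to 0.041, Tcf7l2 −0.092 to 0.33, Notum −0.033 to 0.46. Against WT vehicle they ran, for Notum −0.18 to 0.34, Sp5 −0.19 to 0.21, Lgr5 −0.082 to 0.26. In the difference between the experiments, without M2, the values were Axin2 0.035, Tcf7 −0.11, Tcf7l2 0.070. The H3K27me3 differences ran, for Lef1 −0.30 to 0.97, Tcf7 −0.59 to 0.65, Tcf7l1 −0.77 to 0.19, the Tcf7l2 5′ region −0.84 to 0.089, Notum −0.92 to 0.49, the distal Lgr5 region −0.14 to 0.12, the Lgr5 start −0.13 to 0.37.

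For H3K27me3, 0 member regions were called in any setting, and over all regions 0 to 1 without single libraries. With pileup the difference turned to −0.013 at Lef1, −0.11 at Tcf7 and −0.14 at the Lgr5 start, and at q under 0.01 to 0.017 at Tcf7l1 and −0.33 at the Lgr5 start. A block of the share of tags kept, chosen after seeing the data, also called 0 regions.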
